A study of Rattus norvegicus with 24 samples.

Results

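Arc, Actn2, Stmn1 and Marcks are 4 genes of synaptic and cytoskeletal plasticity among the 32883 genes counted in the rPH region (rostral posterior hypothalamus) of rats exposed to loud noise. They were taken by name from the lists of differentially expressed genes of the study itself, Arc and Actn2 from that of the AS versus RS7 comparison and Stmn1 and Marcks from those of C versus RS7 and C versus RS3. Those comparisons are therefore given below as descriptions, with no test, and support nothing. All 4 genes were among the 16202 that passed the filter on low counts.

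RNA-seq was performed on polyA RNA of tissue blocks of the rPH region from 24 adult Sprague-Dawley rats (Envigo), 6 per group, collected 24 h after the last session. Rats of the control group (C) were placed in the sound chambers daily without loud noise, and the exposed groups heard loud noise on 1 day (AS, acute stress) or on 3 (RS3) or 7 (RS7, both repeated stress) consecutive days, with 1 exposure per day. All rats, controls included, were male and were handled, moved and placed in the chambers over the same days. The exposed groups also differ in the time since their first exposure, which cannot be told apart from the number of exposures. The study left out 1 rat per group, and the values below come from the 20 retained rats, 5 per group, unless said otherwise. A block of dissected tissue mixes cell types, and fewer cells of a type cannot be told apart from less RNA per cell.

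Arc is an immediate-early gene whose mRNA is made after neuronal activity and travels into dendrites, where its protein promotes the internalization of AMPA receptors. Actn2 encodes alpha-actinin-2, which crosslinks actin filaments in dendritic spines and binds NMDA receptors. Stmn1 encodes stathmin, a phosphoprotein that binds tubulin and destabilizes microtubules, and Marcks encodes a substrate of protein kinase C that binds calmodulin, actin and the plasma membrane. In neurons, these proteins act at synapses or on the cytoskeleton.

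The promoters of the genes were read to show what stands upstream of members that were higher and members that were lower after repeated exposures. RefSeq entries (build GRCr8) matched 3 of the 4 genes, Arc being the gene not matched, and each covers 250 bases before to 50 bases after the start site. Stmn1 lies at chr5:151964929-151965228 on the plus strand, Actn2 at chr17:62834805-62835104 on the plus strand and Marcks at chr20:42245833-42246132 on the minus strand. Capitals mark CACGTG, an E-box that is its own reverse complement.
Stmn1: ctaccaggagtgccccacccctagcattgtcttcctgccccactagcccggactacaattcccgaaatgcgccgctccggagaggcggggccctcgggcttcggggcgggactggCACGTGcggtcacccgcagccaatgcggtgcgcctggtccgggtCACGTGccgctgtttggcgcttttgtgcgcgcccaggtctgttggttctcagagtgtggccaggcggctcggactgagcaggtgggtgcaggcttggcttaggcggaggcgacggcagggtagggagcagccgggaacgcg
Actn2: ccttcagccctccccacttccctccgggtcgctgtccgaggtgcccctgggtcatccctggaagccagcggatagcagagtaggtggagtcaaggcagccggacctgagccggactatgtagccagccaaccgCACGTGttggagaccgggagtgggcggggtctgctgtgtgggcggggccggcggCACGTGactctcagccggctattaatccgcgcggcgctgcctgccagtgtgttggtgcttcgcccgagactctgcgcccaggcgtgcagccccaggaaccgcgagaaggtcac
Marcks: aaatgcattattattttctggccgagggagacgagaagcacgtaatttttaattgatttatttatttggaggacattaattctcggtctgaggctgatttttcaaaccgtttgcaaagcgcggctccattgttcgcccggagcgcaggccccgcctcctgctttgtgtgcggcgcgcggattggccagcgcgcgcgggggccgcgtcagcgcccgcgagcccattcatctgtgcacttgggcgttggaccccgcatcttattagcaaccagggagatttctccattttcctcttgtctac
CACGTG occurred 2 times in the Stmn1 window, starting at positions -135 and -91 from the start site, and 2 times in the Actn2 window, at -117 and -63, and was not found in that of Marcks. Of the 33469 promoter windows of this length, 6.42% held it. Other motifs were searched on both strands. The GC box GGGCGG was found once in Stmn1 (-147), 2 times in Actn2 (-96 and -78) and not in Marcks (33.1% of all windows). CCAAT was found in Stmn1 (-116) and Marcks (-71) and not in Actn2 (37.5% of all windows), and TGACG in Marcks alone (-47; 21.2% of all windows). TATAAA (14.2% of all windows) and AGAACA, the hexamer of glucocorticoid response elements (20.7%), were in none of the 3 windows. GC content was 68.3% for Stmn1, 67.7% for Actn2 and 53.7% for Marcks, against a median of 51.7% over all windows. These matches describe the letters only.

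Arc transcripts were scarce, resting on 41 to 121 reads per rat, and their mean was highest after 1 exposure. In C rats 19, 21, 22, 23 and 24, Arc measured 7.09, 5.46, 5.34, 3.89 and 6.98 CPM (counts scaled to a library of 1000000 reads, with library sizes adjusted by TMM, the trimmed mean of M values). In AS rats 13 to 17 it measured 6.69, 9.87, 6.51, 6.13 and 6.22 CPM. The AS rats lay close together except rat 14, and all of them stood within or above the range of the C rats. In RS3 rats 7, 9, 10, 11 and 12, Arc measured 5.40, 4.99, 4.51, 4.84 and 3.95 CPM. In RS7 rats 2 to 6 it measured 4.32, 3.70, 3.67, 5.99 and 3.67 CPM. Every AS rat was above every RS3 and every RS7 rat, while the C rats overlapped with all other groups.

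The Arc means ran from AS (7.08 ± 1.57 CPM, SD, n = 5) through C (5.75 ± 1.33) and RS3 (4.74 ± 0.546) to RS7 (4.27 ± 1.00). In the AS versus RS7 group comparison, which chose the gene, the log2 fold change was -0.72 ± 0.17 (SE), or 39.2% lower in RS7, without overlap of the groups. Over all genes in that comparison, edgeR called 1.67% (adjusted p of 0.05 or less), and 4.08% had groups that did not overlap. No neighbors in this order differed beyond their spread by edgeR's quasi-likelihood test, with an adjusted p of 0.541 between C and AS, 0.425 between C and RS3 and 0.869 between RS3 and RS7. The C versus RS3 comparison is the only one that shares no rat with the comparison that chose Arc, and its log2 fold change was -0.28 ± 0.18, C being higher in 19 of 25 pairs of rats. The interval of that difference, from -0.64 to 0.08 at 95%, included 0, and the value ran from -0.41 without C rat 23 to -0.18 without C rat 19 (edgeR unadjusted p of 0.0224 and 0.331). Between C and RS7 the log2 fold change of Arc was -0.42 ± 0.18 (edgeR adjusted p = 0.219), C being higher in 21 of 25 pairs. Between AS and RS3 the log2 fold change was -0.59 ± 0.17, and the adjusted p of edgeR was 0.789 although the groups did not overlap. Such separation was seen in 0.889% of all genes for AS versus RS3, and this comparison shares the AS rats with the one that chose the gene.

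Actn2, the spine alpha-actinin, was likewise a low transcript (48 to 95 reads per rat) and followed the same order of groups. In C rats 19, 21, 22, 23 and 24 it measured 7.09, 6.39, 6.18, 4.50 and 5.75 CPM. In AS rats 13 to 17 it measured 5.89, 6.77, 6.41, 7.47 and 7.61 CPM. Only C rat 23 was clearly below the AS rats, and the other C rats lay within or just under their range. In RS3 rats 7, 9, 10, 11 and 12, Actn2 measured 6.16, 3.74, 3.90, 4.59 and 5.64 CPM. In RS7 rats 2 to 6 it measured 4.67, 5.07, 4.00, 3.60 and 4.06 CPM. The RS3 rats were spread widely, with rats 7 and 12 at the level of the C rats and the other 3 at the level of the RS7 rats. Every RS7 rat was below every AS rat.

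The means of Actn2 were 6.83 ± 0.721 CPM in AS, 5.98 ± 0.961 in C, 4.81 ± 1.06 in RS3 and 4.28 ± 0.584 in RS7 (SD, n = 5 each). In the AS versus RS7 comparison, which chose the gene, the log2 fold change was -0.68 ± 0.14 (37.6% lower in RS7). The groups did not overlap there, as for 4.08% of all genes. No neighbors in the order passed edgeR's adjustment (adjusted p of 0.626 between AS and C, 0.274 between C and RS3 and 0.827 between RS3 and RS7). In C versus RS3, which shares no rat with the choosing comparison, the log2 fold change was -0.33 ± 0.15, with C higher in 21 of 25 pairs of rats. The interval of that difference, from -0.64 to -0.03 at 95%, did not include 0 (edgeR unadjusted p = 0.0334, adjusted p = 0.274). In C versus RS7, Actn2 was 28.2% lower in RS7 (log2 fold change -0.48 ± 0.15), C was higher in 23 of 25 pairs, and edgeR's adjusted p was 0.116. Actn2 was thus not called there. Without C rat 23, the lowest control, the log2 fold change was -0.58 and edgeR's adjusted p 0.0484, and leaving out any other rat gave no call. Between AS and RS3 the log2 fold change was -0.54 ± 0.14 (edgeR adjusted p = 0.772), AS being higher in 24 of 25 pairs.

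Stmn1, the microtubule-destabilizing stathmin, was an abundant transcript (1668 to 5247 reads per rat, above 97.3% of tested genes in mean CPM) and its mean was higher in every exposed group than in C. In C rats 19, 21, 22, 23 and 24 it measured 260.7, 221.9, 251.7, 290.5 and 276.9 CPM. In AS rats 13 to 17 it measured 341.4, 304.4, 280.9, 283.5 and 278.8 CPM. AS rat 13 had the highest value of all 20 rats, and C rat 23 was the only C rat inside the range of the AS rats. In RS3 rats 7, 9, 10, 11 and 12, Stmn1 measured 322.1, 311.5, 310.4, 281.1 and 331.6 CPM. In RS7 rats 2 to 6 it measured 327.5, 326.7, 312.0, 330.0 and 312.4 CPM. The RS7 rats were the most alike (coefficient of variation 2.73%, against 10.0% in C) and all lay above all C rats, while RS3 rat 11 alone among the RS3 rats fell below the highest C rat.

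The Stmn1 means were 260.3 ± 26.1 CPM in C, 297.8 ± 26.4 in AS, 311.3 ± 19.0 in RS3 and 321.7 ± 8.77 in RS7 (SD, n = 5 each). The comparisons that chose the gene gave log2 fold changes of 0.26 ± 0.06 (SE) for C versus RS3 and 0.30 ± 0.06 for C versus RS7, or 19.4% and 23.4% higher after repeated exposures. They share the C rats. Over all genes edgeR called none in C versus RS3 (2639 had an unadjusted p under 0.05, DESeq2's Wald test called 36 and limma-voom 0) and 0.148% in C versus RS7, and groups did not overlap for 2.28% and 3.59% of genes. In C versus AS, which shares only the C rats with the choosing comparisons, Stmn1 was 14.3% higher in AS (log2 fold change 0.19 ± 0.06). AS was higher in 22 of 25 pairs of rats, and edgeR's adjusted p was 0.461. edgeR called none of the 16202 genes in that comparison, where 1625 had an unadjusted p under 0.05 and both DESeq2 and limma-voom also called 0. The exposed groups did not differ beyond their spread by edgeR (log2 fold changes of 0.06 with adjusted p = 1.00 for AS versus RS3, 0.11 with adjusted p = 0.400 for AS versus RS7 and 0.05 with adjusted p = 0.870 for RS3 versus RS7).

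Marcks, the protein kinase C substrate, was also abundant (1896 to 3537 reads per rat) and, unlike Stmn1, was lower in RS3 and RS7 than in C, with similar levels in C and AS. In C rats 19, 21, 22, 23 and 24 it measured 246.7, 252.3, 237.5, 232.3 and 222.1 CPM. In AS rats 13 to 17 it measured 219.3, 240.6, 219.4, 241.0 and 230.4 CPM. These groups overlapped almost fully. In RS3 rats 7, 9, 10, 11 and 12, Marcks measured 211.5, 175.3, 215.7, 215.5 and 208.9 CPM. In RS7 rats 2 to 6 it measured 223.5, 201.4, 220.4, 191.0 and 203.1 CPM. Every RS3 rat was below every C and every AS rat, with rat 9 far below the rest of its group, whereas RS7 rat 2 reached the lowest C rat and RS7 rats 2 and 4 the lowest AS rats. Over all genes, groups did not overlap for 2.28% in C versus RS3 and 0.889% in AS versus RS3. The first of these comparisons chose the gene, and the second shares the RS3 rats with it.

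The Marcks means were 238.2 ± 11.9 CPM in C, 230.1 ± 10.7 in AS, 207.9 ± 13.7 in RS7 and 205.4 ± 17.1 in RS3 (SD, n = 5 each). The choosing comparisons gave log2 fold changes of -0.21 ± 0.06 (SE) for C versus RS3 and -0.20 ± 0.06 for C versus RS7, or 13.8% and 12.7% lower after repeated exposures. In the comparisons of AS with the same RS3 and RS7 rats, the log2 fold changes were -0.17 ± 0.06 (edgeR adjusted p = 0.975) and -0.15 ± 0.06 (adjusted p = 0.189). Neither passed adjustment, and their intervals at 95%, from -0.28 to -0.05 and from -0.26 to -0.03, did not include 0 (edgeR unadjusted p of 0.00815 and 0.0170). AS was higher than RS3 in every pair of rats and higher than RS7 in 21 of 25. The difference between C and AS was -0.05 ± 0.06 (edgeR adjusted p = 0.789, interval from -0.17 to 0.07), and that between RS3 and RS7 was 0.02 ± 0.06 (edgeR adjusted p = 0.955, interval from -0.10 to 0.14).

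**Figure D1:**
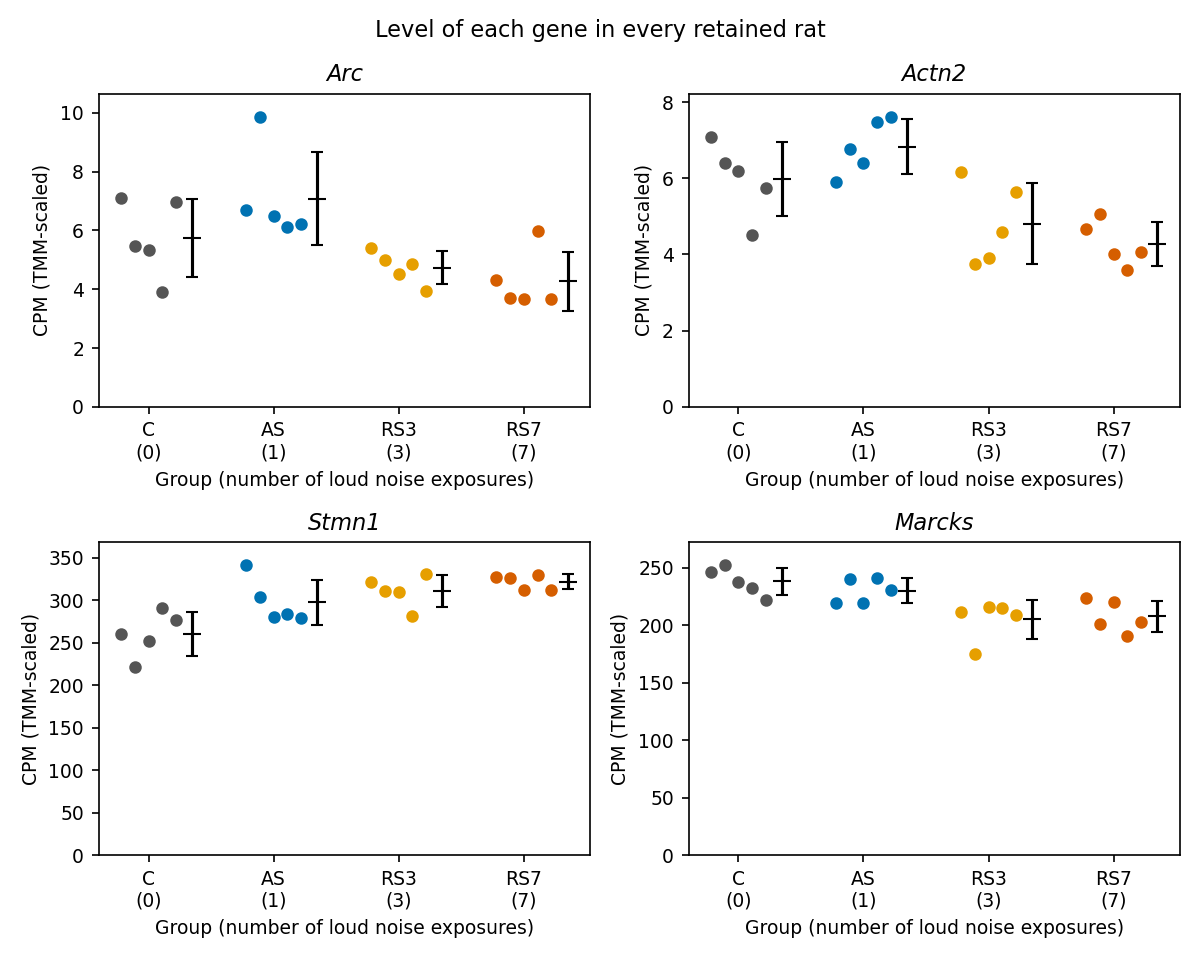
CPM on TMM-scaled library sizes (linear axes from 0) for Arc, Actn2, Stmn1 and Marcks in each of the 5 retained rats per group, by number of loud noise exposures, with the group mean and SD as a bar beside the points. Arc and Actn2 are highest in AS and lowest in RS7, Stmn1 is lowest in C, and Marcks is lower in RS3 and RS7 than in C and AS, with rat 9 of RS3 at 175.3 CPM.

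Of the 24 member comparisons, 18 were not used to choose the genes. In these, edgeR's adjusted p was 0.05 or less in 0 and its unadjusted p was under 0.05 in 8, and DESeq2 and limma-voom also called 0. All of the 18 except C versus RS3 for Arc and Actn2 share a group of rats with a comparison that chose the gene. The 8 therefore carry over part of that choice and cannot be read against the shares over all genes as a test. Over all genes the unadjusted p of edgeR was under 0.05 for 10.0% in C versus AS, 16.3% in C versus RS3, 17.9% in C versus RS7, 4.61% in AS versus RS3, 16.2% in AS versus RS7 and 7.52% in RS3 versus RS7. DESeq2 gave no adjusted p for 2 of the 18, Arc and Actn2 in C versus RS3. The RS3 and RS7 groups, which differ by 4 exposures, gave absolute log2 fold changes of 0.13 for Arc, 0.14 for Actn2, 0.05 for Stmn1 and 0.02 for Marcks. Without RS7 rat 5 the log2 fold change of Arc was -0.30. The median absolute log2 fold change over all genes was 0.08 in that comparison, where 1218 genes had an unadjusted p under 0.05, and edgeR, DESeq2 and limma-voom each called 0.

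**Figure D2:**
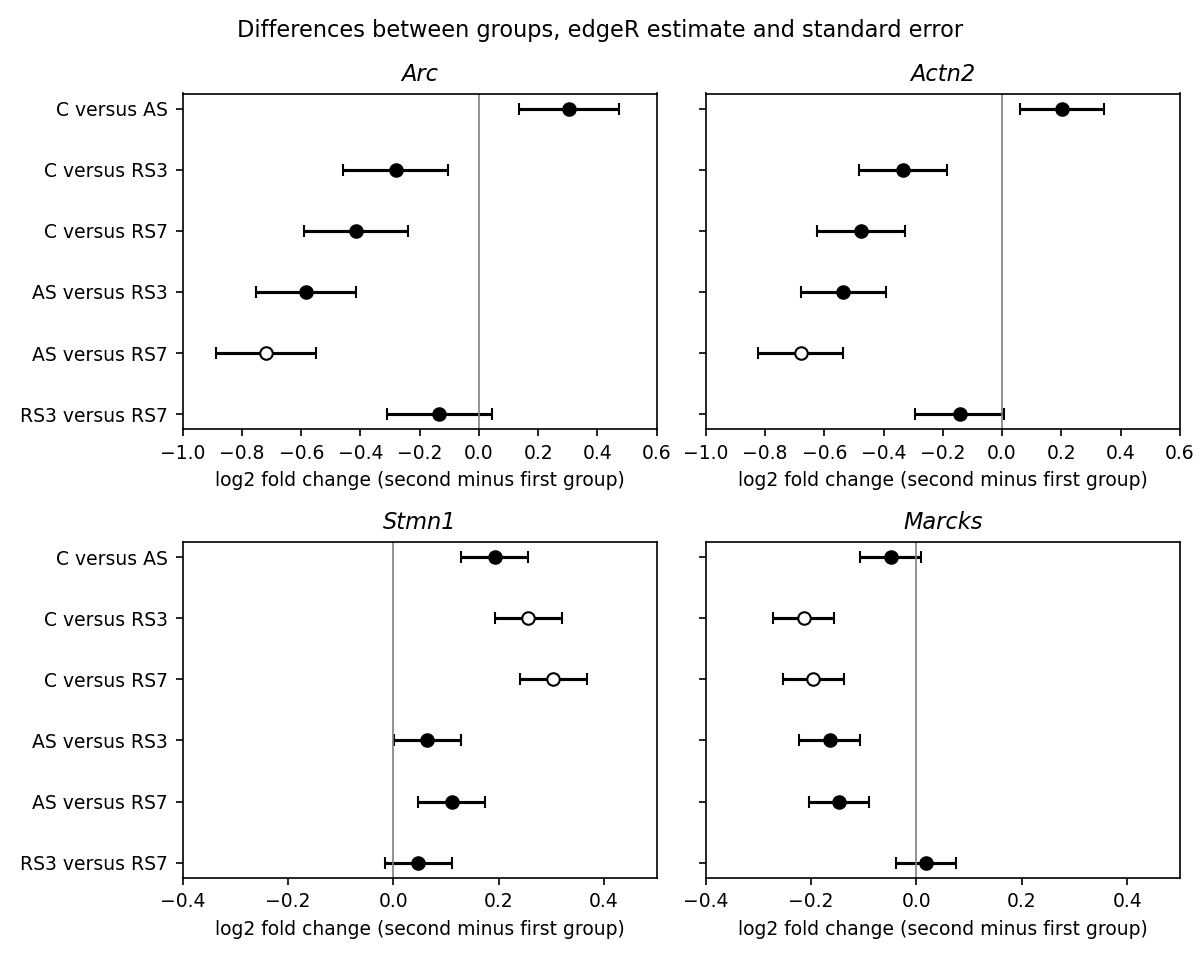
Log2 fold change of each gene (more exposures minus fewer) with its SE from edgeR in the 6 group comparisons, open circles marking comparisons that chose the gene. Arc and Actn2 lie between -0.72 and -0.28 in all comparisons of C or AS with RS3 or RS7, Stmn1 is above 0 in all 6, and Marcks lies between -0.21 and -0.15 wherever C or AS is compared with RS3 or RS7.

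The 4 rats that the study left out were not used to choose the genes, but their libraries stood apart, their 10 most abundant genes taking 24.9% to 46.3% of counts against 12.4% to 20.3% in the retained rats. On a scale computed over all 24 rats, Arc measured 7.45 CPM in C rat 20, above the other C rats (3.66 to 6.67). It measured 5.81 CPM in RS3 rat 8, above the other RS3 rats (3.75 to 5.09), and 3.82 CPM in RS7 rat 1, inside the range of its group. In AS rat 18 it measured 2.68 CPM, below the other AS rats (5.77 to 9.29), from 7 reads. With these rats in the fit, the AS versus RS7 log2 fold change of Arc was -0.66 in place of -0.72, and that of C versus AS was 0.15 in place of 0.30. Actn2 measured 8.32 CPM in C rat 20, 8.04 in AS rat 18 and 6.88 in RS3 rat 8, each above its group, and 3.82 in RS7 rat 1, inside it. Stmn1 measured 241.2 CPM in C rat 20 and 295.3 in RS3 rat 8, inside their groups, and 437.7 in AS rat 18 and 410.3 in RS7 rat 1, above the highest of the other rats in AS (323.3) and RS7 (312.4). With them in the fit, the log2 fold change of Stmn1 went from 0.19 to 0.32 in C versus AS and from 0.06 to -0.06 in AS versus RS3. Marcks was inside its group in C rat 20 (219.9 CPM) and above it in AS rat 18 (275.3), RS3 rat 8 (227.2) and RS7 rat 1 (225.5). RS3 rat 8 and RS7 rat 1 thus stood above C rat 20 and inside the range of the other C rats (210.3 to 238.2). This differs from the retained rats, where mean Marcks was lower in RS3 and RS7 than in C. With the left-out rats in the fit, its log2 fold change went from -0.21 to -0.17 in C versus RS3. In C versus RS7 it went from -0.20 to -0.15 and in C versus AS from -0.05 to 0.01.

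The total counts of the retained rats ranged from 8087697 to 16947298, with medians of 11298078 in C, 11858909 in AS, 12188012 in RS3 and 14189794 in RS7. C rats 21 and 22 and RS7 rat 4 had the largest shares of their counts in 10 genes (20.1%, 20.3% and 18.8%, the others 14.9% or less). Without these 3 rats, Stmn1 kept its direction at 0.18 for C versus RS3 and 0.24 for C versus RS7, and Marcks at -0.19 for both, while Stmn1 in C versus AS went from 0.19 to 0.11 (edgeR unadjusted p of 0.00599 and 0.0772). With the share of the 10 most abundant genes as a covariate, that value was also 0.11. The spread between rats beyond counting error, edgeR's biological coefficient of variation, was 15.5% for Arc, 11.4% for Actn2, 7.30% for Stmn1 and 6.58% for Marcks, against a median of 7.99% over tested genes. In the RefSeq annotation a long non-coding RNA gene overlaps Arc, another overlaps Stmn1, and a tRNA gene lies within Actn2. Whether counting used the strand is not given in the sources used here, so reads of these genes could not be told apart from those of their partners.

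Levels of marker genes for other cells in the block differed between the groups. Marker identifiers were known only for genes in the study's own lists, so the direction of these sums is not independent evidence. Dorsal thalamus markers (5 of 8 with an identifier, namely Tcf7l2, Lef1, Rora, Slc17a6 and Ntng1) summed to 765 to 1015 CPM in C, 801 to 1114 in AS, 837 to 1220 in RS3 and 1103 to 1436 in RS7. This thalamic sum rests mostly on Slc17a6 (486 to 878 CPM over the retained rats) and Ntng1 (185 to 383), with little from Tcf7l2 (14.5 to 30.2) and Rora (6.37 to 22.5). Whether it measures thalamic tissue was not tested. GABAergic neuron markers (6 of 6) summed to 598 to 1015 CPM in C, 698 to 999 in AS, 500 to 688 in RS3 and 485 to 654 in RS7. General neuron markers (5 of 5) summed to 3503 to 3902 CPM in C, 3212 to 3817 in AS, 3641 to 4372 in RS3 and 3816 to 4502 in RS7. Astrocyte markers (3 of 4) summed to 1888 to 2295 CPM in C, 1751 to 1945 in AS, 1790 to 1895 in RS3 and 1751 to 2033 in RS7. Hypothalamic neuropeptides (4 of 6, Avp, Oxt, Trh and Gal) summed to 23.8 to 284 CPM in C, 39.9 to 326 in AS, 11.8 to 149 in RS3 and 4.38 to 36.0 in RS7. No marker with an identifier was at 0 in any retained rat, and oligodendrocyte and microglia markers (0 of 3 each) were not analysed here.

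Some of these sums moved with some of the members from rat to rat, and the relations not named here did not pass adjustment. The GABAergic sum passed with no member (adjusted permutation p of Pearson r from 0.164 for Marcks to 0.594 for Stmn1). The thalamic sum passed with neither Arc (r = 0.17, adjusted permutation p = 0.594) nor Actn2 (r = -0.41, adjusted permutation p = 0.211). After group means were removed, Stmn1 correlated with the thalamic sum over the 20 rats (Pearson r = 0.74, Spearman rho = 0.68, adjusted permutation p of 0.0224 and 0.0310 over 28 relations), and r was 0.59 without the 2 rats farthest from the median of the sum. Marcks correlated with it in the opposite direction (r = -0.69, rho = -0.75, adjusted permutation p of 0.0312 and 0.00896), with r = -0.67 without 2 rats. With the astrocyte sum, r was -0.73 for Stmn1 (rho = -0.71, adjusted permutation p of 0.0224 and 0.0310, -0.59 without 2 rats) and 0.56 for Marcks (rho = 0.60, adjusted permutation p of 0.0312 and 0.0497, 0.47 without 2 rats). With the general neuron sum, r was -0.62 for Actn2 (rho = -0.63, adjusted permutation p of 0.0312 and 0.0399, -0.55 without 2 rats) and -0.69 for Marcks (rho = -0.57, adjusted permutation p of 0.0312 and 0.0698, -0.52 without 2 rats). Arc correlated with the neuropeptide sum (r = 0.62, rho = 0.60, adjusted permutation p of 0.0312 and 0.0602, 0.50 without 2 rats). Of the technical measures, the total count moved with Actn2 (r = -0.69, rho = -0.58, adjusted permutation p of 0.0322 and 0.0921, -0.64 without 2 rats). The share of the 10 most abundant genes moved with Stmn1 (r = -0.58, rho = -0.57, adjusted permutation p of 0.0390 and 0.0698, -0.66 without 2 rats).

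With the thalamic sum as a covariate, a choice made after seeing the data, the C versus RS7 log2 fold change went from 0.30 to 0.14 for Stmn1 and from -0.20 to -0.06 for Marcks. In C versus RS3 it went from 0.26 to 0.16 for Stmn1, from -0.21 to -0.14 for Marcks and from -0.33 to -0.21 for Actn2, and in AS versus RS3 from -0.17 to -0.10 for Marcks. The AS versus RS7 log2 fold change went from 0.11 to -0.04 for Stmn1 and from -0.15 to -0.02 for Marcks. Stmn1 in C versus AS changed little, from 0.19 to 0.18 (edgeR adjusted p of 0.461 and 0.395). For Actn2 the AS versus RS7 value went from -0.68 to -0.47 and the C versus RS7 value from -0.48 to -0.27, and Arc moved the other way, from -0.72 to -0.83 in AS versus RS7. The sum itself differed between the groups and was built from genes chosen on these rats. The part of cell composition in the differences between groups was not tested.

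**Figure D3:**
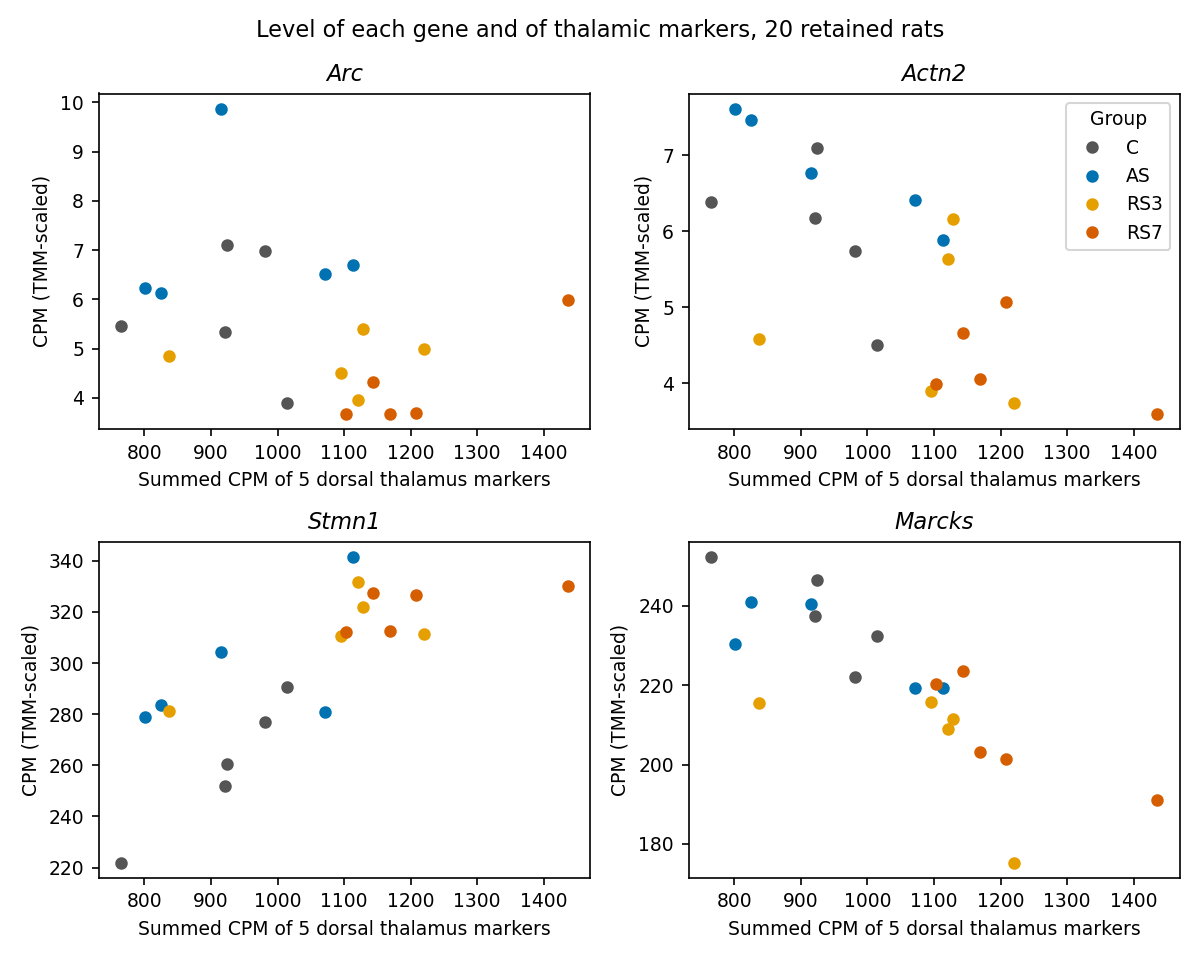
CPM of each gene (vertical axes, not starting at 0) against the summed CPM of 5 dorsal thalamus markers in the 20 retained rats, colored by group. Stmn1 is higher and Marcks lower in rats with a larger sum, which is 1103 CPM or more in every RS7 rat, while C rats lie between 765 and 1015.

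**Figure D4:**
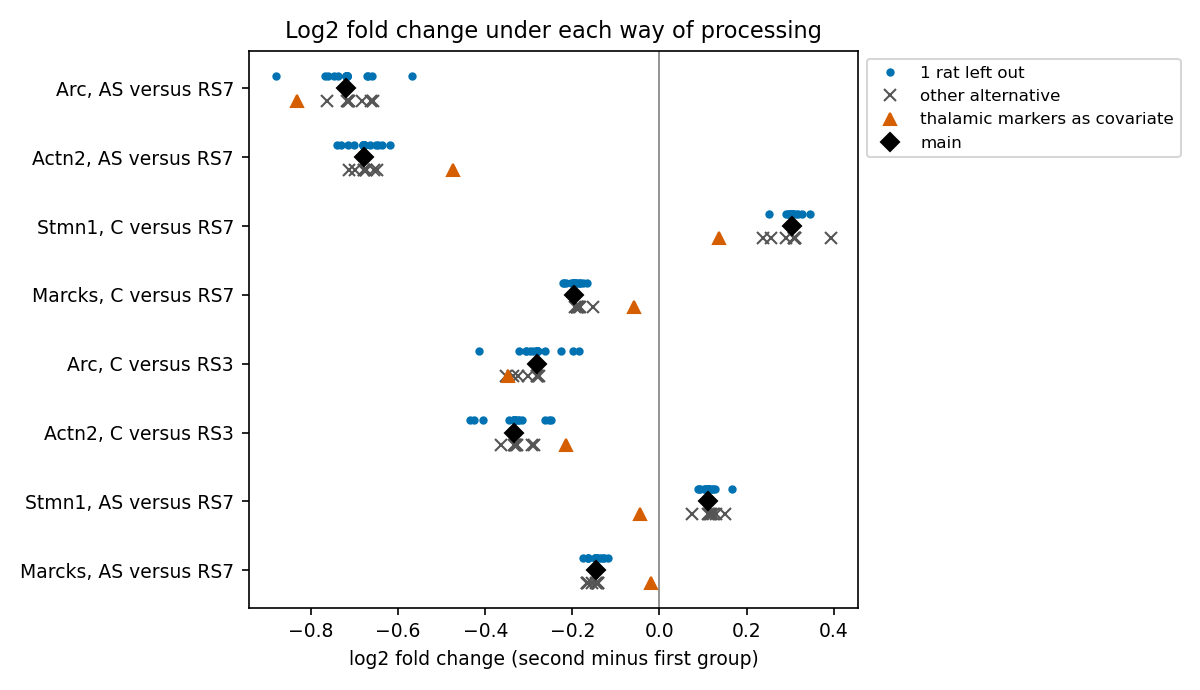
Log2 fold change (second group minus first) of 8 member comparisons under the reported fit (diamond), with each rat left out (dots), with the thalamic marker sum as a covariate (triangle) and under the other alternatives (crosses). The triangle lies at 0.14 for Stmn1 and -0.06 for Marcks in C versus RS7, outside the dots, and at -0.04 for Stmn1 in AS versus RS7, on the other side of 0.

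Between the members themselves, no correlation passed adjustment over the 6 pairs (20 rats, group means removed). Actn2 and Marcks had the largest (Pearson r = 0.49, Spearman rho = 0.35, adjusted permutation p of 0.356 and 0.504, and r = 0.50 without 2 rats). Stmn1 and Marcks gave r = -0.35 (rho = -0.42, adjusted permutation p of 0.374 and 0.381, -0.21 without 2 rats), and over all 24 rats the sign turned (r = 0.43, unadjusted permutation p = 0.0780). Arc and Actn2, which shared the order of their group means, gave r = 0.10 and rho = 0.05 within groups (adjusted permutation p of 0.830 and 0.834, 0.31 without 2 rats).

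Over the 20 rats with group means kept, the genes with a symbol whose log2 CPM was most like that of Arc were Kcnj4 (Pearson r = 0.88), an inward rectifier potassium channel, Prlhr (0.84), the receptor of prolactin-releasing peptide, and Frem3 (0.81). They ranked 1, 2 and 3 among all 16201 other genes tested, of which 778 had a symbol. Symbols were known only for genes that the study listed as differentially expressed in these same rats. For Actn2 they were Celf6 (0.84), an RNA-binding protein, Zbtb7c (0.82) and Pitpnm3 (0.81). For Stmn1 they were Mmd (0.92), Pgk1 (0.91), the glycolytic phosphoglycerate kinase, and Ctnnb1 (0.91), which encodes beta-catenin. For Marcks they were Ptpro (0.89), a receptor tyrosine phosphatase, Gpr165 (0.87) and Ak9 (0.87), an adenylate kinase. The ranks were 2, 3 and 4 for Actn2, 1, 2 and 3 for Stmn1, and 1, 6 and 8 for Marcks. The genes at the skipped ranks had no symbol. All 20 rats, their group means and their library sizes are shared by these correlations, which are descriptions.

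Other genes of the same pathways had an identifier only where the study listed them as differentially expressed in these same rats, and the rest were not analysed here. Their calls, adjusted p, medians and directions were thus shaped by that choice. They are descriptions, and the shares over all genes are no fair background for them. None of 20 further immediate-early genes had one, so Arc stands alone for that class. Of 27 postsynaptic density genes, 5 had one, and edgeR called 3 higher and 0 lower in AS versus RS7, where it called 1.19% of all genes higher and 0.481% lower. Grin2a and Grin2b, subunits of the NMDA receptor that alpha-actinin-2 binds, rose from 16.7 ± 3.34 to 33.6 ± 2.21 CPM (log2 fold change 1.01 ± 0.15, edgeR adjusted p = 0.00405) and from 28.2 ± 3.78 to 39.3 ± 4.07 CPM (0.48 ± 0.11, adjusted p = 0.0310). The scaffolds Homer2 and Lrrc7 gave 0.43 and 0.47 (edgeR adjusted p of 0.0679 and 0.109). In the same comparison Actn2 and Arc were lower, as described above.

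Of 25 genes of actin crosslinking and turnover, 10 had an identifier. Of these, edgeR called 2 higher and 2 lower in AS versus RS7, where it called 1.19% of all genes higher and 0.481% lower. Ppp1r9a, the spine protein neurabin, rose by 0.32 ± 0.06 and the spectrin Sptbn1 by 0.27 ± 0.06 on the log2 scale (edgeR adjusted p of 0.00949 and 0.0293). Ssh3, a cofilin phosphatase, fell by 0.33 ± 0.07 and Cotl1, an actin-binding protein, fell by 0.27 ± 0.06 on that scale (edgeR adjusted p of 0.0219 and 0.0293). The median log2 fold change of the 10 genes was 0.17, with 7 above and 3 below 0. Over all genes it was -0.01, but the 10 had been listed by the study from these rats, so the difference tests nothing. The other alpha-actinins Actn1, Actn3 and Actn4 were not analysed here.

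Of 17 microtubule regulators, 8 had an identifier and edgeR called 0 in any of the 6 comparisons. All 8 had positive log2 fold changes in AS versus RS7 (median 0.15) and in C versus RS7 (median 0.09), comparisons that share the RS7 rats, and in AS versus RS3 and RS3 versus RS7, while 5 of the 8 were negative in C versus AS (median -0.09) and in C versus RS3 (median -0.04). Stmn4, the only other stathmin with an identifier, had a log2 fold change of 0.21 ± 0.06 in AS versus RS7 (273.8 ± 12.4 and 316.2 ± 18.9 CPM, edgeR adjusted p = 0.0625), and of -0.10 in both C versus AS and C versus RS3. Of 13 growth-associated proteins and their kinases, 4 had an identifier, and these had been listed by the study from the same rats. Over all genes edgeR called 1.19% higher and 0.481% lower in AS versus RS7, which is no fair background for them. Of the 4, it called 3 higher and 0 lower there. These were the protein kinase C isoforms Prkcq (0.60 ± 0.12, edgeR adjusted p = 0.0135) and Prkcb (0.22 ± 0.06, adjusted p = 0.0420), whose enzyme class phosphorylates Marcks, and the calcineurin subunit Ppp3ca (0.26 ± 0.05, adjusted p = 0.0128). Prkcq also rose in C versus RS7, from 33.1 ± 7.01 to 54.3 ± 5.49 CPM (log2 fold change 0.70 ± 0.12, edgeR adjusted p = 0.0181).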

How the data were processed

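RNA was sequenced from the rPH region of 24 rats. The authors deposited unnormalized read counts per Ensembl gene for all rats, with no symbols. The submitters' processing notes name Trimmomatic 0.36, HISAT2 2.0.5, featureCounts of Subread, DESeq2, R 4.0.2 and the rn6 (Rnor_6.0) genome. Strandedness and the handling of multiply mapped reads are not given in the sources used here, so overlapping genes or copies could share reads. No column was left without a sample.

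Groups came from the sample labels. The identifiers of the 4 genes and of the pathway and marker genes came from the study's supplementary gene list (779 identifiers with a symbol). Members and lists were chosen with earlier results of these data known. The 4 left-out rats were found by recomputing the mean normalized count of 808 listed genes for each set lacking 1 rat per group. A single set (without rats 20 of C, 18 of AS, 8 of RS3 and 1 of RS7) gave all 808 within a relative tolerance of 1e-07, and the next best gave 0.

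CPM were computed here on TMM-scaled library sizes. Differential expression was tested with edgeR 4.0.16 in R 4.3.3 (robust quasi-likelihood test, 4 groups in 1 fit, no covariate) on 16202 genes kept by filterByExpr (minimum count 10), with Benjamini-Hochberg adjustment per comparison at 0.05. Each rat is a separate animal. Intervals are at 95%. The fit was tested on simulated counts. Correlations used log2 CPM (prior count 2) less group means, with 100000 permutations within groups. Genes named are the 4 members, the 3 genes most like each, and listed pathway genes that were called or belong to a member's family. Homer2 and Lrrc7 were added after their values were seen, and some genes of the lists are not reported here. Alternatives were DESeq2 1.42.0, limma-voom 3.58.1 with quality weights, edgeR with DESeq2 size factors, with unfiltered genes, with all 24 rats or with the compared groups alone, and leaving out each rat. Leaving out 3 rats and the 2 covariates were chosen after seeing the data. Corticosterone and in situ hybridization were not analysed here.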

Additional observations from a re-analysis of the deposited data

Results flagged for a closer look

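Among the 16 sets of 5 rats (4 genes in 4 groups), 3 held a rat whose gap to its nearest neighbor was more than 0.71 of the range of its group, the limit of Dixon's test for 5 values. Chance alone gives about 1 such set in 20. Arc measured 9.87 CPM in AS rat 14, the highest of its group, where the other AS rats had 6.13 to 6.69 CPM. Arc measured 5.99 CPM in RS7 rat 5, the highest of its group, where the others had 3.67 to 4.32 CPM. Marcks measured 175.3 CPM in RS3 rat 9, the lowest of its group, where the others had 208.9 to 215.7 CPM. RS3 rat 9 also had the deepest library of the 20 rats (16947298 counts) and a thalamic marker sum of 1220 CPM, the highest in RS3. RS7 rat 5 had the highest thalamic marker sum of all 20 rats (1436 CPM).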

How the results depend on the processing

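Over 29 alternatives each, no value of Arc or Actn2 in any of the 6 comparisons changed sign, nor did those of Stmn1 and Marcks that chose the genes. Signs changed for Marcks in C versus AS (1 alternative) and RS3 versus RS7 (2), and for Stmn1 in AS versus RS3 (2), AS versus RS7 (1) and RS3 versus RS7 (1), none of them called. With each rat left out, AS versus RS7 ranged from -0.88 to -0.57 for Arc and from -0.74 to -0.62 for Actn2, and C versus RS7 from 0.25 to 0.35 for Stmn1 and from -0.22 to -0.17 for Marcks. Actn2 in C versus RS7 without C rat 23 was the only member value that gained a call (edgeR adjusted p = 0.0484, range 0.0484 to 0.304 over the rats left out). The thalamic covariate moved C versus RS7 to 0.14 for Stmn1 and -0.06 for Marcks. The unadjusted permutation p of Actn2 with Marcks (0.0594) was 0.0111 over all 24 rats (r = 0.51), where r of Arc with Stmn1 went from 0.03 to -0.48, and r of the first pair ranged from 0.33 to 0.61 with each rat left out. Counts of called genes depended strongly on the processing. C versus RS7 (24 in the reported fit) gave 405 with DESeq2, 103 with limma-voom, 64 with no filter, 46 with all 24 rats, 11 with the share of abundant genes as a covariate, and 0 with the thalamic covariate or without C rats 21 and 22 and RS7 rat 4. AS versus RS7 (270) gave 579 with DESeq2, 772 with limma-voom, 433 with only the groups compared, 129 with all 24 rats, 441 with the share of abundant genes and 1 with the thalamic covariate. DESeq2 called 36 genes in C versus RS3 and 3 in AS versus RS3, and the share of abundant genes as a covariate gave 1 in C versus AS, where the reported fit called 0. With each rat left out, the counts ran from 0 to 560 for C versus RS7 (560 without RS7 rat 4, 241 without C rat 23, and 0 without rat 19 or 21 of C or rat 3 or 6 of RS7), from 46 (AS rat 17) to 403 (AS rat 15 or RS7 rat 2) for AS versus RS7 (46 to 97 without AS rat 14, 16 or 17 or RS7 rat 3, 5 or 6), from 0 to 17 (C rat 23) for C versus RS3, and from 0 to 0 for the others. The cause was not tested. No paired analysis was possible because rat numbers are not shared between groups. Arc and Actn2 rest on 41 to 121 reads per rat, which limits their precision.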
